A study of Mus musculus with 74 samples.

Results

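The 8 genes of ribosome production were followed across 74 2-colour arrays of mouse T lineage cells: Myc and 7 genes whose products work in or feed the nucleolus (Nolc1, Ddx21, Srm, Ncl, Npm1, Fbl and Nop56). They were chosen by gene symbol, and all 8 were on the array with 1 probe each, of 16463 probes and 13409 distinct symbols. Their choice drew on the peptide time course, where Nolc1 and Srm were lower at 12 h than at 3 h. Peptide values of the 8 genes are therefore given as a description with no test.

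The arrays fall into 11 groups. Hybridoma groups are DO11.10 T cell hybridoma cells carrying a retrovirus, with untreated DO11.10 hybridoma cells as the second RNA on every array. HDAC7-VP16, a fusion of the class IIa histone deacetylase HDAC7 to a viral transcription activation domain, had 10 arrays, and its empty-virus control MSCV_A had 12. MEF2D-VP16, the same activation domain on the MEF2D transcription factor, had 4 arrays, and the orphan nuclear receptor Nur77 had 4, with a second empty-virus set, MSCV_B, of 4 as their control. Another 8 arrays held cells with the construct labelled HDAC7 DP after 2.5 h of PMA and ionomycin, a phorbol ester and a calcium ionophore that mimic receptor signalling, and 8 held empty-virus cells after the same treatment. Thymocyte groups have 6 arrays each. DO11.10 T cell receptor transgenic thymocytes were set against mhc -/- thymocytes, and thymocytes taken 3 h, 6 h or 12 h after antigenic peptide was injected into DO11.10 mice were set against uninjected DO11.10 thymocytes. The sources used here do not say what DP stands for, nor the age, strain or pooling of the mice. A hybridoma is a fused, immortal cell line, and how active its growth genes are before a construct is added was not measured here.

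All values below are log2 ratios of the named cells' RNA to its partner RNA, after each array was centred on its median. They compare one RNA with another and give no level of a gene in a cell, and no gene is set against another by level. Calls are by limma, at an adjusted p under 0.05 (Benjamini-Hochberg, over all probes), and rose and fell are used of called probes alone. Arrays of a group are not said to hold separate cultures or animals, so p-values may measure technical spread only. Ratios were likely given as named RNA over partner: Nr4a1, the gene of Nur77, averaged 4.50 on the Nur77 arrays. Arrays of opposite dye orientation correlated negatively in MSCV_A (median r = -0.40), HDAC7-VP16 (-0.48) and MSCV_B (-0.24), and replicates 3 and 9 of MSCV_A have no settled direction because they ran against same-dye arrays of their group. The Mef2d probe averaged -0.01 on the arrays labelled MEF2D-VP16 and 0.02 on MSCV_B, so it did not check that label. Nr4a1, a known target of MEF2 factors, averaged 1.36 on those arrays, against 0.14 on MSCV_B. The Hdac7 probe averaged 1.36 on the arrays labelled MEF2D-VP16 (1.17 to 1.58, above 0 on 4 of 4) and -1.52 on those labelled Nur77, against -0.83 on MSCV_B, and its part in those comparisons was not tested.

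Ribosomes are built in the nucleolus, where RNA polymerase I copies the ribosomal RNA genes and small nucleolar RNPs and helicases modify, cut and fold the transcript. Myc is a transcription factor that raises many genes of this pathway when lymphocytes start to grow, and it binds E-box sequences as a dimer with Max. In thymocytes, a strong T cell receptor signal induces Myc along with other early genes. Nolc1 (also Nopp140) is a chaperone of small nucleolar RNPs, Ncl (nucleolin) and Npm1 (nucleophosmin) are abundant nucleolar proteins of rRNA processing and assembly, Fbl (fibrillarin) is the methyltransferase of box C/D small nucleolar RNPs and Nop56 is a core protein of the same particles. Ddx21 is a nucleolar RNA helicase. Srm, spermidine synthase, makes a polyamine that growing cells need and is a known Myc target. In GRCm38.p6 the genes lie at Myc chr15:61985341-61990361, Nolc1 chr19:46075847-46085543, Ddx21 chr10:62580247-62602298, Srm chr4:148591513-148594619, Ncl chr1:86344719-86359455, Npm1 chr11:33152498-33164142, Fbl chr7:28168893-28179269 and Nop56 chr2:130274367-130279313.

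RefSeq promoter sequences (GRCm38.p6, 250 bases before to 50 bases from the gene start, 5′ to 3′ on the gene's strand) were matched for 4 of the 8 genes. These 4 are shown because the sequences used here hold no promoter for Myc, Srm, Npm1 and Fbl. The first 3 fell on the MEF2D-VP16 arrays, as did Srm, and the fourth was not called. The Nop56 window begins fewer than 250 bases before the Nop56 start given above, unlike the other windows. Capitals mark the E-box variants CACGCG and CACGAG on either strand.
Nolc1, chr19:46075597-46075896, plus strand: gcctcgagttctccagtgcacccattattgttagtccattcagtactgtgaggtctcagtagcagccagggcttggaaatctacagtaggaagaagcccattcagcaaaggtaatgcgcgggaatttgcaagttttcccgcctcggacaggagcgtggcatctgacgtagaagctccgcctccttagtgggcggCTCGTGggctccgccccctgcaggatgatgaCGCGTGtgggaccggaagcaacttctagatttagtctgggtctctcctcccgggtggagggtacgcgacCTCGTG
Ddx21, chr10:62602249-62602548, minus strand: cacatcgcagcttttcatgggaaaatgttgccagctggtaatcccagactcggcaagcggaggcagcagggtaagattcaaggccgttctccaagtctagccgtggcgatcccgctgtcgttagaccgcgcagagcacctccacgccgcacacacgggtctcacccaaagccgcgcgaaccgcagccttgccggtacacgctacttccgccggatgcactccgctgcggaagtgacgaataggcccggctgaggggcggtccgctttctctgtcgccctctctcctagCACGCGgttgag
Nop56, chr2:130274162-130274461, plus strand: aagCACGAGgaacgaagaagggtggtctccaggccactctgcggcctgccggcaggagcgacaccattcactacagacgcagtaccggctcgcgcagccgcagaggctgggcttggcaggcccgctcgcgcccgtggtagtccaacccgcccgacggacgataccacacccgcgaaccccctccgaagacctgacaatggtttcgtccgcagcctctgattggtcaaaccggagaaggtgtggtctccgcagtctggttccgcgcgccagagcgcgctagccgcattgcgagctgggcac
Ncl, chr1:86359406-86359705, minus strand: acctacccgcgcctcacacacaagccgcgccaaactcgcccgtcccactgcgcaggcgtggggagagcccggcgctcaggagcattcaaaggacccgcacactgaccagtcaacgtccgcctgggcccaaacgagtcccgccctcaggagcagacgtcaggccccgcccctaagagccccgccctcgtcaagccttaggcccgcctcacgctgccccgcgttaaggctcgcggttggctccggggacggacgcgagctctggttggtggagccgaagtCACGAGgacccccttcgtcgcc
The canonical E-box CACGTG was in 0 of the 4 windows and in 7.15% of 32851 promoters of that length. CACGCG was in the Ddx21 and Nolc1 windows (9.27% of all promoters) and CACGAG in those of Ncl, Nop56 and Nolc1 (6.47%). Either variant occurred in all 4 windows, called or not, and in 14.7% of all promoters. The consensus motif of MEF2 was in 0 of the 4 windows and in 1.86% of all promoters. The 6-base motifs were searched on both strands and do not overlap each other in these windows. A match in letters is a description and shows no bound factor.

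Genes of ribosome production fell together on the arrays labelled MEF2D-VP16. Nolc1, Ddx21, Nop56 and Srm fell by 1.09 to 1.53 on the log2 scale against MSCV_B, while Myc, Ncl, Npm1 and Fbl were not called. In that comparison 6.16% of all probes were called lower, 6.4% higher and 12.6% in either direction, against 4 of the 8 genes lower and 0 higher. Median change of the 8 genes was -0.75 and that of all probes -0.005.

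Nolc1 had log2 ratios of -1.04, -1.38, -1.09 and -1.61 on the 4 MEF2D-VP16 arrays, against 0.15, 0.37, 0.23 and 0.10 on the 4 MSCV_B arrays. Every MEF2D-VP16 array lay below every control array, by 1.14 at the closest. The difference was -1.49 (SE 0.13, 2.81-fold lower, limma adjusted p = 0.000122). Nop56 stood at -1.21, -0.71, -1.07 and -1.26 with MEF2D-VP16 and at -0.06, -0.01, 0.25 and -0.07 with the empty virus. Those groups too did not overlap, and Nop56 fell by 1.09 (SE 0.15, adjusted p = 0.00132). Ddx21 gave -0.77, -0.82, -0.87 and -1.35 with MEF2D-VP16, against 0.19, -0.18, 1.36 and 0.95 with MSCV_B. Its control arrays were spread over more than 1 log2 unit, and it fell by 1.53 (SE 0.28, adjusted p = 0.00639). Set against all 16 empty-virus arrays, Ddx21 was no longer called, at -0.56 (adjusted p = 0.514). Srm had ratios of -0.66, -0.13, -0.62 and -1.12 with MEF2D-VP16 and 0.48, 1.05, 0.18 and 0.15 with the empty virus. The lowest control array was 0.28 above the highest MEF2D-VP16 array, and Srm fell by 1.09 (SE 0.23, adjusted p = 0.0134). The share of all probes that separate in this way is not given here, so separation is not read as particular to these genes.

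Of the genes that were not called, Fbl had the larger shift among the nucleolar ones, -0.40 (95% interval -0.74 to -0.06, adjusted p = 0.132). Ncl differed by -0.19 (interval -0.65 to 0.27) and Npm1 by -0.03 (interval -0.34 to 0.29). The Ncl value leaned on 1 MEF2D-VP16 array at -0.82, while the other 3 lay between -0.08 and 0.04. Myc itself differed in the other direction and was not called, at 0.58 (interval 0.13 to 1.03, adjusted p = 0.103): its ratios were 0.13, 0.46, 0.08 and 0.10 with MEF2D-VP16, against -0.79, -0.88, 0.42 and -0.30 with MSCV_B. Without the third MSCV_B array the Myc difference was 0.79 and was called (adjusted p = 0.0113). That was the only call in 8 fits that each left out 1 array. Myc on MSCV_B averaged -0.83 with own RNA in Cy5 and 0.06 with it in Cy3. The Myc ratios of MEF2D-VP16 cells were above 0 on 4 of 4 arrays, on the same arrays on which Nolc1, Ddx21, Srm and Nop56 were all below 0.

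**Figure D1:**
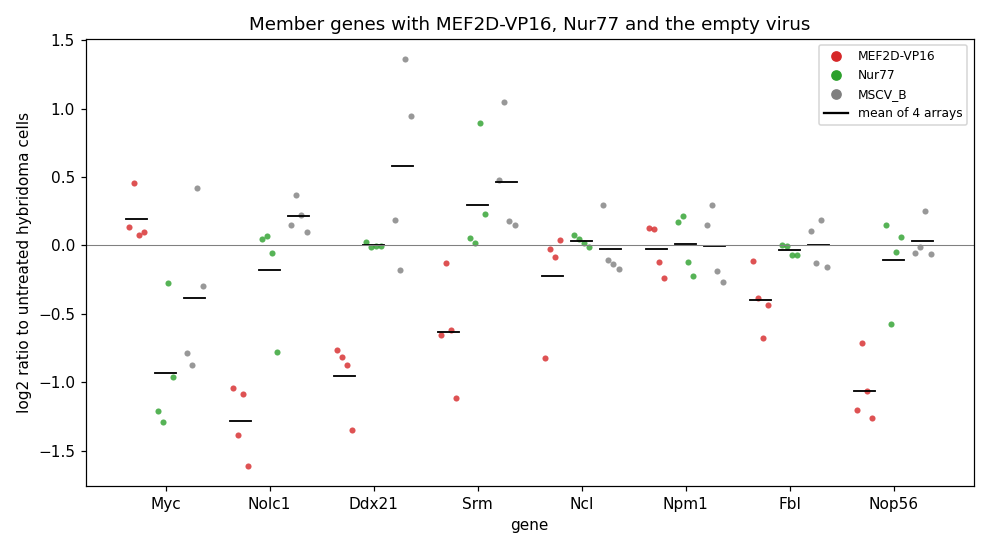
Log2 ratio to untreated hybridoma cells (vertical axis) of the 8 genes on each array with MEF2D-VP16, Nur77 and the empty virus MSCV_B, 4 points a group, with bars at the means. MEF2D-VP16 points of Nolc1, Ddx21, Srm and Nop56 lie below all MSCV_B points, while those of Myc, Ncl, Npm1 and Fbl overlap them.

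A list of 81 measured genes of rRNA processing and ribosome assembly, which does not hold the 8, had 52 genes that fell and 0 that rose, with a median of -0.76. Among them were Heatr1, a factor of pre-rRNA transcription and processing (-1.68, adjusted p = 0.000511), Bysl, of small subunit assembly (-1.57, adjusted p = 8.57e-05), and Ftsj3, an rRNA methyltransferase (-1.54, adjusted p = 0.000209). Over 13 other ways of fitting, 0 rose in each. Counts of genes that fell ran between 37 (against all 16 empty-virus arrays) and 62 (against untreated cells). Of all probes, 9.97% and 18.3% were called in those fits, in that order. Taken array by array, the median ratio of the 81 genes lay between -0.67 and -0.51 on the MEF2D-VP16 arrays and between 0.01 and 0.49 on MSCV_B. On MSCV_B itself 23 of the 81 rose against untreated cells, where 5.72% of all probes were called. Without a dye term that count was 0, where 0.121% of all probes were called. The MEF2D-VP16 arrays carry slide numbers 11, 12, 21 and 22 and the MSCV_B arrays 1 to 4, so slide and construct cannot be told apart.

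Of 11 RNA polymerase I genes, 3 fell and 0 rose: the polymerase subunits Polr1b (-1.28) and Polr1a (-1.15), and Ubtf, a factor that opens ribosomal DNA to the polymerase (-1.11). Among polyamine genes Odc1, the first enzyme of polyamine synthesis (-1.47, adjusted p = 0.000165), Sms, spermine synthase (-1.14), and Mtap, which salvages the by-product of synthesis (-1.24), fell with Srm, and Smox, which oxidises spermine (1.83, adjusted p = 4.97e-05), and Oaz2, an antizyme that restrains Odc1 (0.74), rose. Of the 11 measured genes of the polyamine list, which does not hold Srm, 4 fell, 2 rose and 5 were not called. Within the 18 genes of the Myc network, 3 rose and 2 fell. The 3 that rose were Mxd4 (1.98, adjusted p = 7.07e-05), Mxi1 (1.73, adjusted p = 0.000905) and Mxd1 (1.73, adjusted p = 0.0029), which encode proteins that compete with Myc for Max and repress E-box genes. Mxd3, also a Max partner, fell (-0.62), so the called Max partners did not all move in 1 direction. Bin1 fell too (-0.54), and its call was kept in 5 of 13 other fits. Among 25 growth and metabolic genes known as Myc targets 10 fell and 0 rose, led by the nucleotide synthesis genes Gart (-1.77) and Cad (-1.33) and by the DNA repair gene Apex1 (-1.37).

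**Figure D2:**
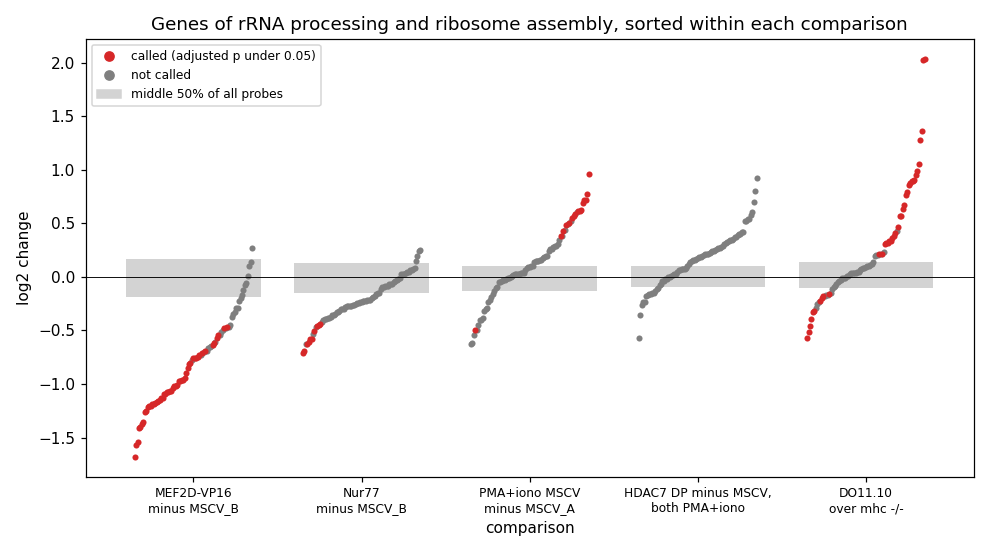
Log2 change (vertical axis) of the 81 genes of rRNA processing and ribosome assembly, sorted within each of 5 comparisons. Red points were called, grey points were not, and the grey box spans the quartiles (25% to 75%) of all probes. With MEF2D-VP16, 52 of the 81 lie among the called falls and 0 among the called rises.

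With Nur77, limma called 0 of the 8 genes against MSCV_B, where 6.91% of all probes were called, and 3 had an unadjusted p under 0.05. Nolc1 differed by -0.39 (adjusted p = 0.215) and Ddx21 by -0.58 (adjusted p = 0.169), and Srm, Ncl, Npm1, Fbl and Nop56 by -0.16 to 0.06. Myc was lower by 0.55 than with MSCV_B (adjusted p = 0.121), with ratios of -1.21, -1.29, -0.28 and -0.96 with Nur77. Against untreated cells the same Myc ratios averaged -0.93 and were called (adjusted p = 0.00579). In the list of rRNA processing genes 10 of 81 fell and 0 rose, among them Tcof1, a nucleolar factor of rDNA transcription (-0.69). Without a dye term, or with all 11 groups in 1 fit, 0 rose and 0 fell. With all 16 empty-virus arrays as control 1 rose and 1 fell (7.39%), and against untreated cells 6 rose and 2 fell (13.2%).

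The difference between both constructs was tested itself, in a comparison chosen after the data were seen. Between MEF2D-VP16 and Nur77, 13% of all probes were called. Nolc1 was lower with MEF2D-VP16 by 1.10 (SE 0.16, adjusted p = 0.00211), Nop56 by 0.96 (adjusted p = 0.00808), Ddx21 by 0.95 (adjusted p = 0.00229) and Srm by 0.93 (adjusted p = 0.0288). The call of Srm was kept in 4 of 8 fits that each left out 1 array. Myc was higher with MEF2D-VP16 by 1.13 (SE 0.18, adjusted p = 0.0032), and its 4 MEF2D-VP16 ratios lay above all 4 with Nur77. In the rRNA processing list 39 of 81 genes were lower with MEF2D-VP16 and 1, the helicase gene Ddx54, was higher.

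In hybridoma cells treated with PMA and ionomycin for 2.5 h, Ddx21, Nolc1 and Myc rose and the other 5 genes were not called, where 12.5% of all probes were. Ddx21 ranged from -0.16 to 0.99 (median 0.49) on the 8 stimulated arrays and from -1.52 to 0.58 (median -0.88) on the 12 MSCV_A arrays. The ranges overlap, and the difference was 1.17 (SE 0.23, adjusted p = 0.00145). Nolc1 ranged from -0.28 to 0.68 (median 0.15) with stimulation and from -1.08 to 0.48 (median -0.57) without it, a difference of 0.69 (SE 0.17, adjusted p = 0.01). Its call was lost when the 2 MSCV_A arrays of unsettled direction had their sign turned (0.45, adjusted p = 0.241). Myc lay between 0.19 and 0.56 (median 0.40) on all stimulated arrays and between -0.77 and 0.60 (median -0.20) on MSCV_A, and rose by 0.56 (SE 0.13, adjusted p = 0.0072). Slide series 14 and 15, as the array titles name them, each hold both groups. In series 15 alone, where 4.53% of all probes were called, Ddx21, Nolc1 and Myc differed by 0.85, 0.62 and 0.60. None of them was called there. Against all 16 empty-virus arrays 1 of the 8 genes was called, where 12.4% of all probes were. As ratios to untreated cells, stimulated means of Ddx21, Nolc1 and Myc were 0.46, 0.17 and 0.38. They were -0.71, -0.52 and -0.175 on MSCV_A and 0.58, 0.21 and -0.39 on MSCV_B. For Ddx21 and Nolc1 the stimulated means were thus above those of MSCV_A but not above those of MSCV_B.

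Other genes of the pathway moved in part. Of the 81 rRNA processing genes 15 rose, among them Nop16 (0.96), Ppan (0.77) and Rrs1 (0.72), which act in large subunit assembly, and 1, Wdr12 (-0.49), of a complex of the same step, fell. Of the RNA polymerase I genes 4 rose, led by Polr1b (0.82), and Taf1b fell (-0.78). Of the 18 Myc network genes 5 rose and 2 fell. Max, the partner of Myc, rose by 0.90, Zbtb17, which encodes the Myc-binding protein Miz-1, by 0.77 and Mxd1 by 0.66, and Mxd3 and Mxi1 fell by 0.77 and 0.67. The Myc target list had 4 falls and 0 rises, among them the purine synthesis genes Ppat (-0.90) and Paics (-0.73) and the transcription factor gene Tfap4 (-0.73). Of the 81 rRNA processing genes 4 rose in series 14 alone and 4 in series 15 alone. In those fits 4.74% and 4.53% of all probes were called in either direction.

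The stimulated empty-virus arrays also differed by slide number. The median ratio of the 81 genes lay between 0.125 and 0.235 on the 4 arrays of slides 13 and 14 and between -0.055 and 0.004 on the 4 of slides 15 and 16. Ddx21 averaged 0.70 on the first pair of slides and 0.21 on the second, Nolc1 0.32 and 0.02, and Ncl 0.14 and -1.08, while Myc stood at 0.32 and 0.45. The part of the slides in the stimulated values was not tested.

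Stimulated cells with HDAC7 DP were not called apart from stimulated empty-virus cells for any of the 8 genes, where 1.65% of all probes were called. At an unadjusted p under 0.05 limma had 1 of the 8. Ddx21 was the widest, at -1.11 (SE 0.38, adjusted p = 0.192). It ranged from -2.40 to 1.11 (median -0.58) with HDAC7 DP and from -0.16 to 0.99 (median 0.49) with the empty virus. Its spread within the HDAC7 DP arrays (SD 1.13) was as wide as the difference, and in slide series 14 alone it was called (-1.99, adjusted p = 0.0425). Myc differed by 0.04, and its ratios were above 0 on 8 of 8 arrays in both groups. In the rRNA processing list 0 genes were called, and 10 rose, with 6.24% of all probes called, in a fit with slides 13, 14, 19 and 20 against 15 to 18 as a covariate. The Hdac7 probe averaged 2.09 with HDAC7 DP but ran from -0.015 to 4.81 (SD 2.09, above 0 on 7 of 8 arrays), against -0.22 with the empty virus.

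With HDAC7-VP16, too, 0 of the 8 genes were called against MSCV_A, where 2.72% of all probes were. At an unadjusted p under 0.05 limma again had 1 of the 8, Ddx21, at 1.01 (SE 0.34, adjusted p = 0.138). Its ratios ran from -1.75 to 1.99 (median 0.33) with HDAC7-VP16 and from -1.52 to 0.58 with MSCV_A. Ddx21 also differed between dye orientations, averaging -0.35 on the 5 HDAC7-VP16 arrays with their own RNA in Cy5 and 0.94 on the 5 with it in Cy3, and Nop56 did so at -0.53 and 0.68. In the wider list 6 of 81 rRNA processing genes rose and 0 fell, led by Rrp15 (0.66), Rrp9 (0.58) and Bop1 (0.56). Slide series 14 alone had 0 called, where 0.0425% of all probes were, and series 15 alone 8, where 4.27% were. Hdac7 averaged 0.55 on the HDAC7-VP16 arrays (-0.15 to 1.19, above 0 on 8 of 10), against 0.13 on MSCV_A, and ranges of both groups overlap.

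Both empty-virus sets had genes among the 8 that were called against untreated cells. On MSCV_A arrays, where 1.97% of all probes were called against untreated cells, Ddx21 fell by 0.71 (adjusted p = 0.0435) and Nolc1 by 0.52 (adjusted p = 0.0466). With the sign of replicates 3 and 9 turned, 0 of the 8 were called, and 0% of all probes. On MSCV_B arrays, where 5.72% were called, Ddx21 rose by 0.58 (adjusted p = 0.0197) and Srm by 0.46 (adjusted p = 0.0427). Without the dye term 0 of the 8 were called, and 0.121% of all probes. Ddx21 on MSCV_B averaged 0.01 with own RNA in Cy5 and 1.16 with it in Cy3.

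Thymocytes gave the widest shift of the series in a single one of these genes. Nolc1 averaged 3.02 on the arrays of DO11.10 over mhc -/- thymocytes, an 8.11-fold difference, and 6 of the 8 genes rose in DO11.10. Myc fell and Srm was not called. The background was high: 36.3% of all probes were called, 20.5% higher and 15.8% lower in DO11.10. Here the ratio is taken as DO11.10 over mhc -/-, so a positive value means less RNA in mhc -/- thymocytes. That direction is likely, not stated: Cd69, Nr4a1 and Egr1, which receptor signalling induces, were at 2.13, 1.89 and 3.16. In bulk RNA of this kind, fewer cells of a type and less RNA per cell cannot be told apart.

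Nolc1 ranged from 2.05 to 3.51 (median 3.15) over the 6 arrays (SE 0.17, adjusted p = 1.18e-05). The next highest group mean of Nolc1 was 0.21, on MSCV_B. Fbl lay between 0.79 and 1.15 (median 0.99) and rose by 0.98 (SE 0.06, adjusted p = 1.75e-05). Ddx21 rose by 0.78 (0.33 to 1.29, adjusted p = 0.00183), Nop56 by 0.36 (0.24 to 0.62, adjusted p = 0.0028), Npm1 by 0.26 (0.11 to 0.38, adjusted p = 0.00243) and Ncl by 0.23 (-0.17 to 0.59, adjusted p = 0.0167). Nolc1, Fbl, Ddx21, Nop56 and Npm1 were thus above 0 on 6 of 6 arrays and Ncl on 5. Myc was below 0 on 6 of 6 arrays, between -1.18 and -0.32 (median -0.68), and fell by 0.68 (SE 0.11, adjusted p = 0.00215). Srm differed by -0.21 (interval -0.40 to -0.01, adjusted p = 0.0983). With all 11 groups in 1 fit, where 27.5% of all probes were called, the calls of Ncl, Npm1 and Nop56 were lost. In that fit 4 of the 8 remained called.

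Around these genes the pathway did not move as one. Of 81 rRNA processing genes 29 rose and 10 fell in DO11.10, with a median of 0.09. Wdr46 (2.04), Noc2l (2.03) and Tcof1 (1.36) led the rises and Rbm28 (-0.57), Nop10 (-0.51) and Ddx47 (-0.46) the falls. Among the RNA polymerase I genes 1 rose, the termination factor Ttf1 (1.58), and 4 fell, among them Polr1d (-0.60) and Polr1b (-0.52). Of the 18 Myc network genes 7 rose and 3 fell. Mycn, the paralog of Myc, fell by 1.56 (adjusted p = 2.53e-06), Mxd3, a Max partner of dividing cells, by 1.02 and Fbxw7 by 0.228. Mnt (1.05) and Mxd4 (0.95), Max partners that oppose Myc, and Mlx (0.81) led the rises. Of 11 measured polyamine genes 4 rose and 0 fell. Of the 25 growth and metabolic genes 8 rose, led by Cdk4 (2.76), Eif4a1 (2.26) and Cad (1.47), and 3 fell, Eif4e (-0.49), Nme2 (-0.29) and Set (-0.18). Of 9 thymic epithelium and stroma markers 6 rose and 1 fell, with an array median of 0.41 to 1.21, and the single erythroid marker measured rose on arrays at 1.61 to 2.35. Of 12 thymocyte markers 2 rose and 5 fell, with array medians of -0.22 to -0.03. Of 3 B cell markers 2 rose and 1 fell (array medians 0.10 to 0.34), and 0 of 5 myeloid and dendritic markers were called (-0.09 to 0.06). The part of these other cells in the values of the 8 genes was not tested.

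After peptide injection, Myc and Srm were high at 3 h and near or below their uninjected level at 12 h, and Nolc1 and Fbl were low at 12 h. All values in this paragraph are descriptions. Myc averaged 1.13 ± 0.23 at 3 h, 0.25 ± 0.32 at 6 h and -0.11 ± 0.32 at 12 h (SD, n = 6 each). It lay between 0.78 and 1.37 (median 1.16) at 3 h, between -0.01 and 0.88 (median 0.16) at 6 h and between -0.50 and 0.42 (median -0.17) at 12 h. All 12 h arrays were below all 3 h arrays. Srm averaged 0.66 ± 0.38 at 3 h, 0.18 ± 0.39 at 6 h and -0.21 ± 0.23 at 12 h. Its 3 h ratios were all above 0, from 0.17 to 1.12 (median 0.57), and 5 of 6 at 12 h were below 0, from -0.58 to 0.05 (median -0.15). Nolc1 averaged 0.18 ± 0.56 at 3 h, -0.20 ± 0.58 at 6 h and -1.80 ± 1.01 at 12 h, and all 12 h arrays lay below all 3 h arrays. Fbl held at 0.24 ± 0.23 at 3 h and 0.28 ± 0.08 at 6 h and was at -0.96 ± 0.63 at 12 h. The remaining 4 genes differed less between times: Ddx21 averaged -0.46, -0.26 and -0.73, Ncl 0.25, 0.10 and -0.10, Npm1 0.02, 0.01 and -0.28, and Nop56 -0.01, -0.00 and -0.31 at 3 h, 6 h and 12 h. Between 12 h and 3 h the means of Ncl differed by -0.35, against -0.87 for Srm and -1.24 for Myc.

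The 12 h values of Nolc1 and Fbl differed by slide. All 3 h arrays were on slides of a series numbered 13, as were 2 of the 6 arrays at 6 h and 2 of the 6 at 12 h, and the others carry no series number. Some slide numbers of series 13 are given both to a 3 h array and to a 6 h or 12 h array. Whether the series is a single batch is therefore not known. At 12 h Nolc1 was at -0.71 and -0.42 on the series 13 slides, against -2.94, -2.14, -2.05 and -2.54 on the others. Fbl was at -0.09 and -0.29 on series 13 and between -1.71 and -1.14 elsewhere. Within series 13 the 12 h minus 3 h difference was -0.75 for Nolc1, against -1.98 over all arrays, and -0.43 for Fbl, against -1.20. Ddx21 at 6 h averaged 0.54 on series 13 and -0.66 on the other slides. For Myc the series made little difference, with 12 h means of -0.17 on series 13 and -0.08 elsewhere, and Srm stood at -0.17 and -0.23. The part of the slide series in the 12 h values was not tested.

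**Figure D3:**
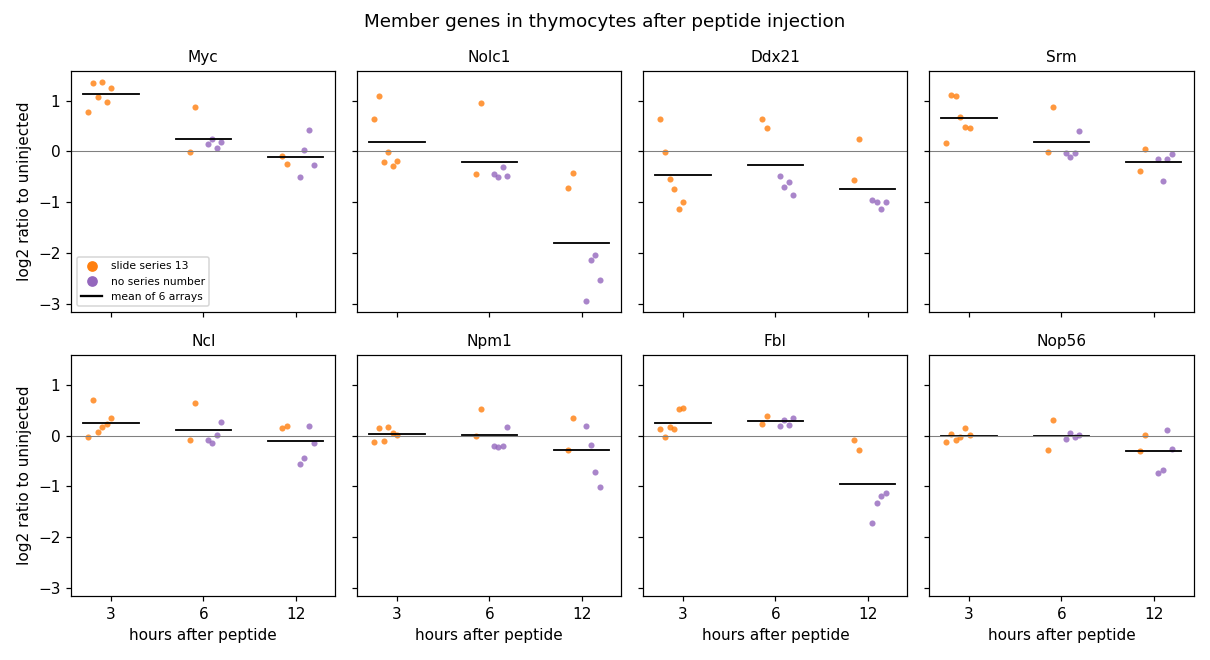
Log2 ratio to uninjected thymocytes (vertical axis) of each of the 8 genes against hours after peptide (horizontal axis), 6 arrays a time, coloured by whether the slide belongs to series 13, with bars at the means. Nolc1 at 12 h lies at -0.71 and -0.42 on series 13 slides and between -2.94 and -2.05 on the others, while Myc is above 0.78 on all arrays at 3 h.

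Pathway genes outside the 8 are given for the same times, from contrasts that the choice of genes had used, and nothing is read from the counts. At 3 h 12 of 81 rRNA processing genes rose and 0 fell (2.71% of all probes called), at 6 h 9 rose and 0 fell (4.57%), at 12 h 0 rose and 1 fell (3.38%), and between 12 h and 3 h 0 rose and 23 fell (4.87%). Median ratios of the list were 0.24, 0.17 and -0.02 at the 3 times. At 3 h Heatr1 (0.72), Rcl1 (0.68) and Rrp15 (0.66) led, with Odc1 at 0.51 and the amino acid carrier gene Slc7a5 at 0.69. At 12 h the list median was -0.05 on series 13 slides and -0.04 on the others. Between 12 h and 3 h 4 of the 81 genes fell on series 13 alone (2.2% of all probes called), against 23 over all arrays. Cdk4 (-1.74), Noc2l (-1.61), Eif4a1 (-1.37) and Rrp9 (-1.30) were called between 12 h and 3 h over all arrays. On series 13 alone they differed by -0.153, -0.435, -0.003 and -0.452 and were not called. Thymic epithelium and stroma markers had array medians of -0.88 to -0.27 at 3 h, -0.52 to -0.34 at 6 h and -0.13 to 0.40 at 12 h, with 3, 5 and 1 of 9 genes lower and 0 higher, and the erythroid marker fell at 3 h and 6 h. Myeloid and dendritic markers had array medians of -0.08 to 0.03, -0.09 to 0.13 and -0.11 to 1.497 at the 3 times, and at 6 h 1 of 5 of them and 1 of 3 B cell markers fell. Between 12 h and 3 h 3 of 9 epithelium and stroma markers and 1 of 5 myeloid markers rose. Of 12 thymocyte markers 0, 2 and 1 fell at the 3 times and 0 rose. Their part in the values was not tested.

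Uninjected DO11.10 thymocyte RNA is on top of the mhc -/- ratio and is the partner on every peptide array, so both kinds of ratio share a kind of RNA and are set side by side with no test. Nolc1 was at 3.02 in the DO11.10 over mhc -/- ratio and at -1.80 at 12 h, and Fbl at 0.98 and -0.96. Myc was at -0.68 in the first and at 1.13 at 3 h.

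Seen over all 11 groups, the 8 genes did not share 1 order. Nolc1 was highest in DO11.10 over mhc -/- (3.02), 2.81 above the next group, and lowest at 12 h of peptide (-1.80) and with MEF2D-VP16 (-1.28). Between those ends, the 8 groups ranked second to ninth, with means of 0.21 to -0.52, each differed from the next by less than the larger of their SDs. Myc was highest at 3 h of peptide (1.13), 0.71 above stimulated HDAC7 DP cells (0.43), and lowest with Nur77 (-0.93), and every other step in its order was within the SD. Srm was highest at 3 h (0.66) and lowest with MEF2D-VP16 (-0.63), and only the step above MEF2D-VP16 exceeded the SD. MEF2D-VP16 was also the lowest group for Ddx21 (-0.95) and Nop56 (-1.06), and 12 h of peptide was lowest for Fbl and Npm1. Ncl was lowest in stimulated empty-virus cells (-0.47 ± 0.84), and no step in its order exceeded the SD.

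Across the 11 group means, Nolc1 correlated most with Fbl (Pearson r = 0.93) among the other 7 genes, and Npm1 with Fbl (0.90). Myc correlated negatively with Nolc1 (-0.25) and with Ddx21 (-0.43). Among all probes the patterns most like Nolc1 were those of Mrpl11 (0.984), Nup54 (0.982), Grap (0.979), Ctnnbl1 (0.977) and Mrps18b (0.977). Those most like Srm were Cenpu (0.958), Timm22 (0.945), Gins3 (0.943), Exosc2 (0.93) and Fen1 (0.929), and those most like Myc were Dkk2 (0.917), Pln (0.912), Dock6 (0.91), Gria2 (0.894) and Rab25 (0.885). These are descriptions over 11 means, which share partner RNA within the hybridoma groups and within the peptide groups.

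**Figure D4:**
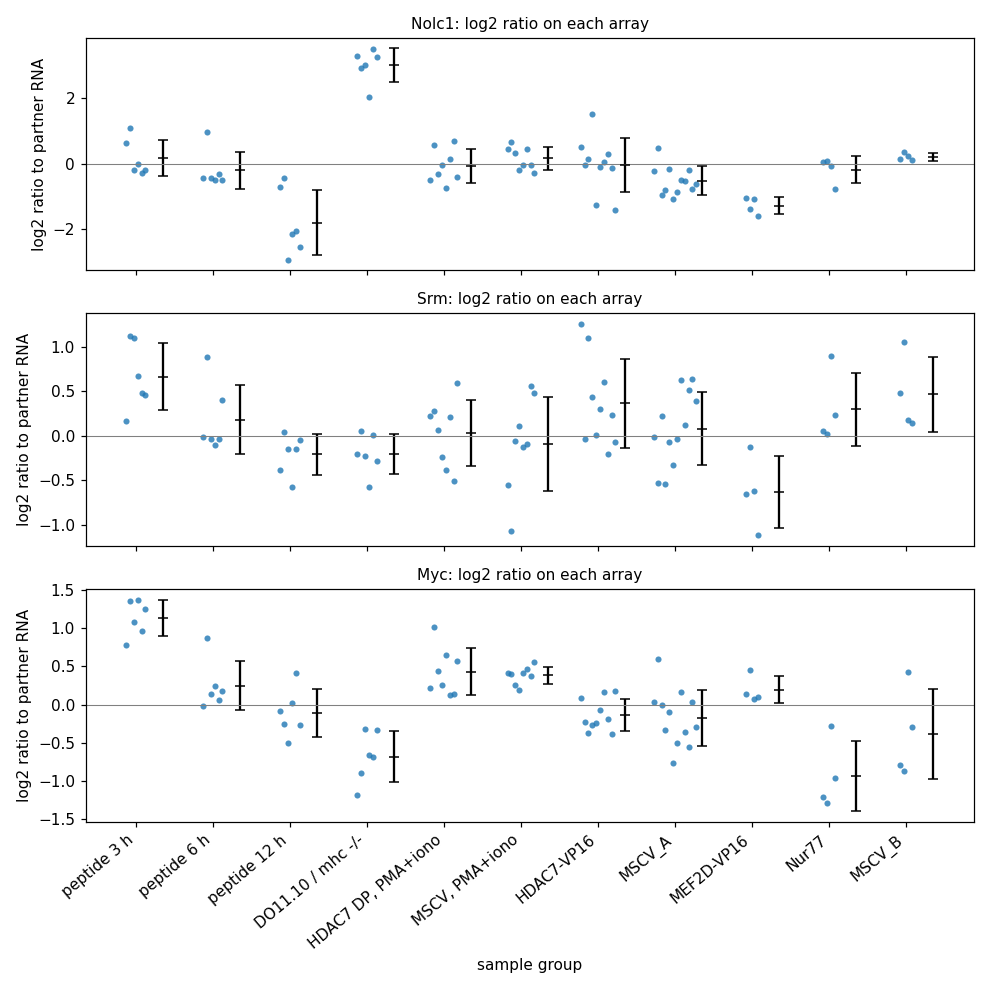
Log2 ratio to the partner RNA (vertical axis) of Nolc1, Srm and Myc on every array of the 11 groups (horizontal axis), with the mean and SD of each group to the right of its points. Nolc1 is highest in DO11.10 over mhc -/- (2.05 to 3.51), and Srm is lowest with MEF2D-VP16.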

How the data were processed

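RNA of 74 samples was compared with a partner RNA on 2-colour mouse oligonucleotide arrays. Per the labels' protocols, cDNA carrying aminoallyl-dUTP was coupled to Cy3 or Cy5. The values deposited by the authors are log2 ratios: the base 2 is assumed, and for scanner, background, normalization, direction and imputation the sources used here give nothing. No value was missing (0 of 16463 probes on any array), and array medians ran from -0.021 to 0.023, and the number of arrays limits the precision. Spot intensities were not used here.

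Each array was centred on its median. limma 3.58.1 (lmFit and eBayes, R 4.3.3) was run on every probe over the groups of each comparison, with a term for dye orientation. Orientation came from the titles, because both label fields read Cy3. Ratios were tested against 0 where the partner RNA was the control, and otherwise the difference of ratios was tested. The fit was tested on simulated data. Samples were grouped by title and construct. The source name of HDAC7-VP16 replicate 1 gives the empty virus and its title HDAC7-VP16, and it was kept, with a fit without it. Probes were named by the platform annotation (1 symbol for 14551 probes, several for 6, none for 1906), positions come from RefSeq GRCm38.p6, and probes were not aligned again.

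The 8 genes, the wider gene lists and the tests were chosen with earlier results of these data known. Named genes are the 8, then up to 3 called genes in each direction per list and comparison by size of log2 change, the 5 probes most like Nolc1, Srm and Myc by Pearson r, and Nr4a1, Hdac7, Mef2d, Egr1 and Cd69 as label checks. The first probe stands for a listed gene with several. The lists held 81 of 106 rRNA processing, 11 of 15 RNA polymerase I, 11 of 16 polyamine, 18 of 18 Myc network and 25 of 30 growth genes. Alternatives were no dye term, quantile normalization, all groups in 1 fit, other controls, single slide series, averaged slides, sign-turned arrays and leaving out single arrays of groups of 4.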

Additional observations from a re-analysis of the deposited data

Results flagged for a closer look

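In groups of 4 to 10 arrays, a highest or lowest array standing apart from the rest by Dixon's ratio was looked for in 80 sets of values, 8 genes in 10 groups, and 8 were found. Chance gives about 1 in 20. At 6 h of peptide 1 array had Myc at 0.877, with the next at 0.244, and Nolc1 at 0.963, with the next at -0.315. On the MEF2D-VP16 arrays Myc reached 0.455 on 1 array, with the next at 0.132, and Ncl was at -0.822 on 1, with the next at -0.082. On the Nur77 arrays Nolc1 was at -0.783 on 1, with the next at -0.055, and Ddx21 at 0.024, with the next at -0.005 and a whole range under 0.05. Ncl was at 0.294 on 1 MSCV_B array, with the next at -0.106, and Npm1 at -0.591 on 1 HDAC7-VP16 array, with the next at -0.184.

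Fbl was above 0 on all 6 arrays at 6 h and below 0 on all 6 at 12 h, so its mean was 1.236 higher at 6 h. The difference was not tested, because the genes were chosen on the peptide times.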

How the results depend on the processing

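Over 648 refits of the 8 genes in 9 comparisons, 597 kept their side of the threshold, 41 lost a call, 10 gained one and 0 reversed a called value. In 44, a value that was not called changed sign. Counts of called genes moved as follows, with the share of all probes called in brackets. Against MSCV_A, HDAC7-VP16 had 0 in the main fit (2.72%) and 1 with all groups in 1 fit (3.48%). It had 2 on slide series 15 (4.27%) and 1 with slides averaged over series (2.7%). Stimulated empty virus had 3 in the main fit (12.5%), 1 with all 16 empty-virus arrays (12.4%) and 0 on series 15 (4.53%). HDAC7 DP had 0 in the main fit (1.65%) and 1 on series 14 (1.17%). Nur77 had 0 in the main fit (6.91%) and 1 when set against untreated cells (13.2%). MSCV_A had 2 in the main fit (1.97%). The count was 1 without the dye term (1.52%), with quantile normalization (1.57%) or with slides averaged (1.68%). It was 0 with all groups in 1 fit (1.98%), with turned signs (0%), on series 14 (0.249%) or on series 15 (1.15%). MSCV_B had 2 in the main fit (5.72%) and 0 without the dye term (0.121%) or with all groups in 1 fit (2.59%). Without any single array it had 1 (2.11% to 2.72%). DO11.10 over mhc -/- had 4 with all groups in 1 fit (27.5%), against 7 (36.3%), and MEF2D-VP16 against Nur77 had 3 (11.8%), against 5 (13%). The causes were not tested.

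With MEF2D-VP16 the count was 4 to 5 when each array was left out in turn, and with Nur77 it was 0 to 0. In those fits 8.54% to 11.3% of all probes were called with MEF2D-VP16 and 4.11% to 7.62% with Nur77. On slide series 13 alone, with 2 arrays each, 0% of all probes were called at 6 h and 0% at 12 h. The listed pathway genes called there were thus 0 and 0, against 14 and 6, which is not particular to them. Between 12 h and 3 h series 13 alone had 8 called, against 32, with 2.2% of all probes called, against 4.87%. Nolc1 and Fbl differed by -0.746 and -0.434 between those times. Of 19 listed genes named for MEF2D-VP16, 14 were called in all 13 refits and 0 changed sign. Polr1b and Ubtf changed sign with Nur77 under 1 refit each. No paired analysis was possible because replicate numbers were given in accession order and slide numbers are not said to pair samples. Signal over background was not measured, so dim probes among the 8 cannot be told apart from bright ones.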
